A study of Homo sapiens with 23 samples.

Results

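Nascent transcription after 1 h of TRPS1 degradation was compared with transcription after 0.5 h, in 8 of the 23 PRO-seq libraries of a dTAG time course in T47D cells. The 4 libraries at 1 h were set against the 4 at 0.5 h by their labels, with the replicate number as a block, and no DMSO library entered the test. The comparison therefore asks which genes' counts moved between 0.5 h and 1 h of the treatment. Counts cover whole genes, so a move in this interval does not tell when the change behind it began.

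T47D is a luminal, estrogen receptor-positive breast cancer cell line grown here in serum with insulin. All libraries come from 1 clone, Clone 28, whose endogenous *TRPS1* locus carries a degron tag; per the study's methods, the clones keep only tagged TRPS1, the other genomic copies being knocked out. Both groups received dTAG-13 and dTAG-V-1 at 50 nM each, for 0.5 h (n = 4) or 1 h (n = 4), so the degrader and its DMSO solvent are shared and only the time differs. The replicates were harvests made at different times of 1 day. With the replicate number as a block, level differences between harvests are taken out. The p-values then measure how the difference between time points varies over harvests of 1 clone.

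TRPS1 is a GATA-type zinc finger protein that acts mainly as a transcriptional repressor and is abundant in luminal breast cells. In the dTAG method, the small molecules bridge the tagged protein to a ubiquitin ligase, and the proteasome destroys it without touching its gene. PRO-seq labels RNA that engaged polymerases are making, so a gene's read count follows the polymerases on it, and a change can be seen long before the amount of mRNA has moved.

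Total counts per library were 7001408, 9380005, 17126461 and 13525594 at 0.5 h and 5016775, 8333605, 8789399 and 5547868 at 1 h, for replicates 1 to 4. In every pair the 1 h library was the shallower, so depth moved with the comparison. Luminal markers (*KRT8*, *KRT18*, *KRT19*, *EPCAM*, *CDH1*, *ESR1* and *PGR*) summed to between 5350 and 5960 CPM (counts scaled to library size, with TMM factors) in the 8 libraries. The basal, fibroblast, endothelial and leukocyte lists each summed to at most 32.9 CPM. *TRPS1* itself was read at 9933, 8928, 10770 and 10470 CPM at 0.5 h and at 10260, 10140, 11140 and 11150 CPM at 1 h. It was higher at 1 h in 4 of 4 pairs, by a log2 fold change of 0.09 ± 0.03 (SE) that was not called (edgeR, adjusted p = 0.60). Reads over the gene do not check the loss of its protein.

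The promoters of 3 genes that carry the comparison are shown first. *FLJ12825* is the 1 steadily transcribed gene called in the 8-library fit, *JUN* had the largest fall among the immediate-early genes tested, and *DHCR7* had the largest rise among the cholesterol genes tested. Each runs from 250 bases before to 50 bases after a RefSeq start (GRCh38.p14), 5′ to 3′ on the gene's strand, with motif matches in capitals.
FLJ12825, chr12:54058004-54058303, plus strand: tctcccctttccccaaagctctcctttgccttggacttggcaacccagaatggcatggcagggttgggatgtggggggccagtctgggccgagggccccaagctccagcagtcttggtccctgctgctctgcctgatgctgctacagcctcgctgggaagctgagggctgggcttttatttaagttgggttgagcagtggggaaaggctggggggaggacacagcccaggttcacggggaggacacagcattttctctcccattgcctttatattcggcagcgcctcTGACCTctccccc
JUN, chr1:58783998-58784297, minus strand: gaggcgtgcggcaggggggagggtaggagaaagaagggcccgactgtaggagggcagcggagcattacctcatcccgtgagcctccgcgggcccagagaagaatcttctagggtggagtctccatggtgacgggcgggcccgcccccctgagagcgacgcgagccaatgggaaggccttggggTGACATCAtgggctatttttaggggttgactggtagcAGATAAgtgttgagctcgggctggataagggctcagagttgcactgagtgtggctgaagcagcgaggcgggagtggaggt
DHCR7, chr11:71448344-71448643, minus strand: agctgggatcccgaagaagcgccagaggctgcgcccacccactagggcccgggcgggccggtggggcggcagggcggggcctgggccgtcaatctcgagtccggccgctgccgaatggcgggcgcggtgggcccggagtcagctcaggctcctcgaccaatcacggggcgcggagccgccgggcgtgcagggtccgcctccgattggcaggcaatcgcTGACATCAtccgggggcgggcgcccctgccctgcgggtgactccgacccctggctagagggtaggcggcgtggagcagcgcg

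The motifs searched on both strands were AGATAA (10.3% of the 35116 RefSeq promoters in the table, a site for zinc fingers of the GATA type), AGGTCA (an estrogen receptor half-site, 13.8%), TGANTCA (AP-1, 7.71%), TGACNTCA (a CRE or AP-1-like site, 7.72%) and TCACNCCAC (a sterol regulatory element, 1.13%). Per the study, the receptor binds AGGTCA in pairs, and the match here is to a single copy. The same TGACATCA stands 67 bases before the start of *JUN* and 32 bases before that of *DHCR7*, genes that moved in opposite directions. *JUN* also has AGATAA 30 bases before its start, and *FLJ12825* has an AGGTCA site, read from the other strand, 37 bases after its start. A second annotated start of *DHCR7* has AGGTCA 40 bases before it. TGACNTCA and AGGTCA can share letters, but no matches shown here overlap. These matches are letters in a window and say nothing of binding.

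Few genes passed the test within the interval. In the fit of the 8 libraries, 4 of 23123 genes tested (0.0173%) were called by edgeR's quasi-likelihood test at an adjusted p under 0.1, 3 higher and 1 lower at 1 h. At an unadjusted p under 0.05, 905 genes were higher and 824 lower, and the median log2 fold change over all genes was -0.000604. As many genes lay above as below 0 (49.8% positive). Leaving the replicate block out of the model left 0 calls, with 1032 genes at an unadjusted p under 0.05.

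*FLJ12825*, a long noncoding RNA gene on chromosome 12, was the only call with a fall. It gave 76.2, 83.2, 88.4 and 88.7 CPM at 0.5 h against 52.7, 62.1, 62.8 and 65.5 CPM at 1 h. Every 1 h library lay below every 0.5 h library, and the log2 fold change was -0.47 ± 0.04 (SE; edgeR, adjusted p = 0.0397). The gene spans 64.0 kb on the plus strand (hg38, chr12:54058254-54122235) and overlaps the lncRNA gene ENSG00000249388 on the same strand and *SMUG1*, a uracil-DNA glycosylase gene, on the other. Since the sources used here do not state how strand entered the counting, reads of these genes cannot be fully told apart. ENSG00000249388 gave 14.7, 15.1, 16.6 and 16.7 CPM at 0.5 h against 7.43, 8.45, 11.3 and 10.3 CPM at 1 h, a log2 fold change of -0.73 ± 0.10 (edgeR, adjusted p = 0.217 with 8 libraries and 0.0072 with the 19 libraries described below). The fall of *FLJ12825* had the same direction under every alternative run, but it was far from called without the replicate block. Its adjusted p by edgeR with the block rose to 0.284 without replicate 3, 0.156 without replicate 4 and 0.108 without replicate 2.

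The 3 genes called higher were of another kind. *TMEM132D*, which encodes a neuronal transmembrane protein, gave 381, 108, 34.5 and 146 CPM at 0.5 h against 724, 184, 93.6 and 419 CPM at 1 h. *COL27A1*, a fibrillar collagen gene, gave 35.4, 114, 9.22 and 13.1 CPM at 0.5 h against 69.7, 340, 13.3 and 34.7 CPM at 1 h. The lncRNA gene ENSG00000287474 gave 14.7, 7.07, 5.42 and 3.94 CPM at 0.5 h against 44.6, 14.7, 10.3 and 9.05 CPM at 1 h. All 3 were higher at 1 h in 4 of 4 pairs, while the groups overlapped because replicates differed more than the time points did. The log2 fold changes were 1.16 ± 0.12, 1.21 ± 0.14 and 1.22 ± 0.13 (SE; edgeR, adjusted p = 0.0631, 0.0996 and 0.0631).

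These 3 genes were also unsteady among the DMSO libraries, which the test did not use. *TMEM132D* gave 502, 739, 48.0 and 65.9 CPM in DMSO, a 15.4-fold span. Of the genes tested, 799 (3.46%) had a highest DMSO library over 3 times the lowest, and 81.4% of those had a positive log2 fold change, with a median of 0.33. Among the steady genes 48.6% were positive. The unsteady genes took 0.819% to 5.02% of counts at 0.5 h and 0.955% to 4.15% at 1 h. Over the series their share was largest in the replicate 1 libraries. It ran there from 3.05% at 2 h, with 7886241 counts, to 5.6% at 4 h, with 4408544 counts. Replicate 4 at 1 h, with 5547868 counts, had 2.13%, and replicate 2 at 1 h, with 8333605 counts, had 2.39%. In replicates 2, 3 and 4 the share of the unsteady genes was larger at 1 h than at 0.5 h, and in replicate 1 it was smaller. The part of depth in the 3 rises was not tested beyond thinning each 0.5 h library to the total of its 1 h partner, after which *TMEM132D* and *COL27A1* passed (adjusted p = 0.0477 for both) and ENSG00000287474 did not (adjusted p = 0.12). None of the 3 was called when the spread was estimated from 19 libraries (adjusted p = 0.444, 0.482 and 0.699).

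**Figure D1:**
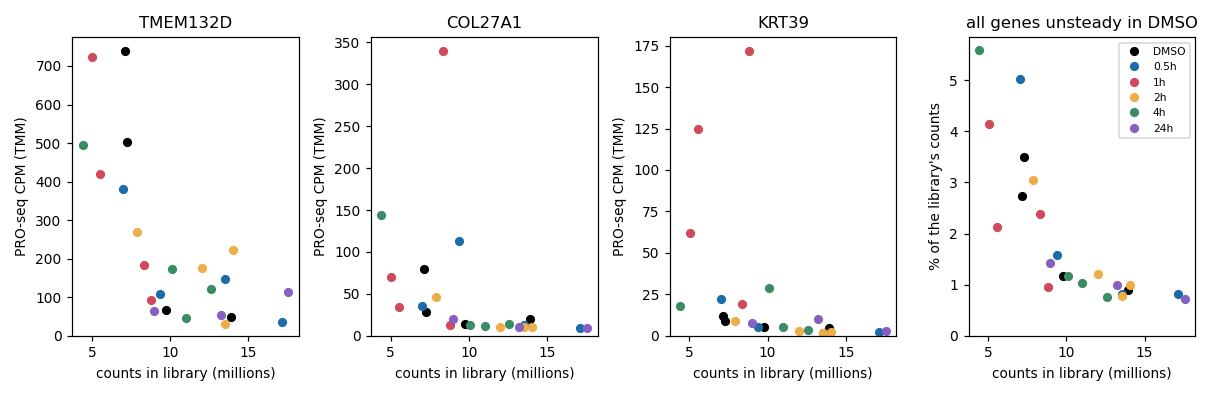
PRO-seq CPM of *TMEM132D*, *COL27A1* and *KRT39*, and the percent of each library's counts in all 799 genes unsteady in DMSO, against the library's total counts. Each point is 1 of the 23 libraries, coloured by group; the 1 h libraries (red) have 5016775 to 8789399 counts, and the share of unsteady genes reaches 5.6% in the shallowest library and is 0.723% in the deepest.

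A fit with all 19 dTAG libraries tested the same contrast with the spread of each gene estimated over 5 time points. It called 42 of 26146 genes (0.161%), 20 higher (0.0765%) and 22 lower (0.0841%) at 1 h. All 41 of these genes that were also tested with 8 libraries had the same sign there, and 1, *FLJ12825*, was called there too. All 42 moved in 1 direction in 4 of 4 pairs (8.11% of all genes were higher and 8.89% lower in every pair). For 20 of the 22 falls and 12 of the 20 rises the 4 libraries at 1 h did not overlap those at 0.5 h (1.9% and 1.33% of all genes were lower and higher without overlap). The genes were called on these same libraries by a test within pairs, which favours both patterns, so these counts describe the calls and add no support to them. The genes of this fit described below were chosen after their values were seen.

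**Figure D2:**
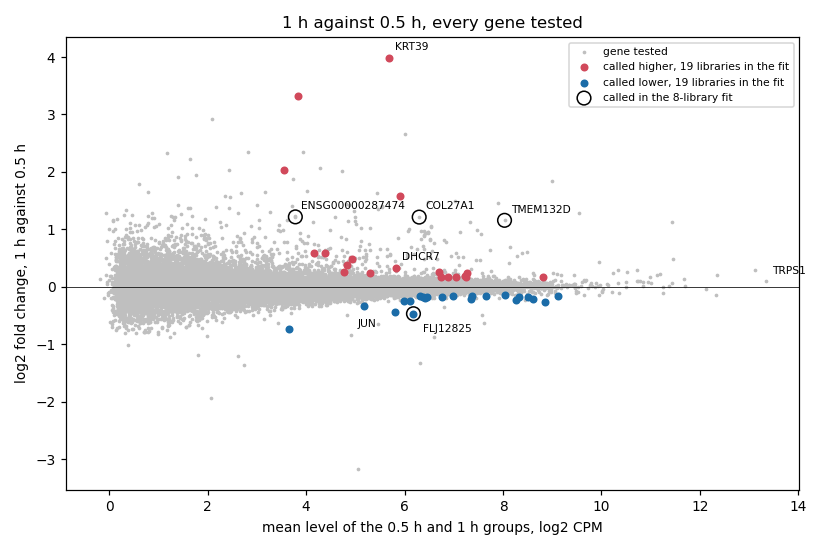
Log2 fold change of 1 h against 0.5 h for every gene tested in the 8-library fit (vertical) against the mean level of both groups in log2 CPM (horizontal). Red and blue points are the genes called higher and lower with 19 libraries in the fit, and circles the 4 called with 8; the lowest called fall plotted is ENSG00000249388 at -0.73, while the 3 circled rises lie between 1.16 and 1.22 and *KRT39* at 3.99.

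The falls were small and tight. *PREX1*, a guanine nucleotide exchange factor for the GTPase Rac, gave 506, 514, 491 and 497 CPM at 0.5 h against 444, 391, 412 and 422 CPM at 1 h. The 4 libraries at 1 h lay below all 4 at 0.5 h (log2 fold change -0.27 ± 0.04, SE; edgeR with 19 libraries, adjusted p = 0.0046). *ITPK1*, a kinase of inositol phosphates, gave 324, 329, 338 and 338 CPM against 290, 278, 273 and 290 CPM, a log2 fold change of -0.23 ± 0.03 (edgeR, adjusted p = 0.0072). *CELSR1*, a cadherin of planar cell polarity, gave 181, 178, 170 and 176 CPM against 158, 151, 148 and 150 CPM (log2 fold change -0.22 ± 0.04; edgeR, adjusted p = 0.0269). The groups did not overlap for any of these genes.

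Among regulators, *RUNX1*, a transcription factor of luminal cells, gave 398, 353, 401 and 382 CPM at 0.5 h against 348, 322, 348 and 340 CPM at 1 h. It fell by 0.18 ± 0.03 on the log2 scale (edgeR with 19 libraries, adjusted p = 0.0216). *ZMIZ1*, a transcriptional coactivator, fell by 0.17 ± 0.03 (adjusted p = 0.0269), from a mean of 586 ± 22.1 to 521 ± 11.5 CPM (SD, n = 4). *AMOTL2*, an angiomotin that binds YAP, fell by 0.17 ± 0.03 (adjusted p = 0.0931), from 133 ± 2.06 to 119 ± 3.45 CPM. It overlaps *RPL39P5* on the same strand (mean counts of 1199 and 423.5 over the 8 libraries), so its count is uncertain.

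Other falls were as small. *SLC30A1*, the zinc exporter of the plasma membrane, gave 41.0, 37.8, 40.7 and 41.0 CPM at 0.5 h against 36.5, 31.5, 32.5 and 27.3 CPM at 1 h. Its log2 fold change was -0.33 ± 0.06 (edgeR with 19 libraries, adjusted p = 0.0216). *B4GALT1*, a galactosyltransferase of the Golgi, fell by 0.16 ± 0.03 (adjusted p = 0.0456), from a mean of 175 ± 9.73 to 157 ± 7.3 CPM. *MLPH*, melanophilin, which links vesicles to myosin, fell by 0.16 ± 0.03 (adjusted p = 0.0548), from 213 ± 3.77 to 191 ± 6.8 CPM. *HEG1*, a transmembrane receptor, and *SRCIN1*, an inhibitor of SRC kinase signalling, fell by 0.25 ± 0.04 and 0.26 ± 0.05 (both adjusted p = 0.0335). The remaining falls, between 0.14 and 0.21 on the log2 scale, were *ARHGEF10L*, *ECE1*, *SFXN2*, *MBOAT1*, *SLC35C2*, *AMZ1*, *TNS2-AS1* and ENSG00000250644. The last of these overlaps *IFITM10* on the same strand. *TNS2-AS1* overlaps *EIF4B* and *AMZ1* overlaps *GNA12* on the other, so the counts of all 3 are uncertain.

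The rises with steady libraries were of like size. *ELAPOR1*, an endosome-lysosome transmembrane protein, gave 95.6, 91.1, 94.7 and 94.6 CPM at 0.5 h against 121, 109, 107 and 113 CPM at 1 h. All 4 libraries at 1 h were higher, with a log2 fold change of 0.25 ± 0.04 (SE; edgeR with 19 libraries, adjusted p = 0.0072). *BACH1*, a heme-regulated transcriptional repressor, gave 439, 388, 440 and 425 CPM against 503, 472, 472 and 462 CPM, a log2 fold change of 0.17 ± 0.03 (edgeR, adjusted p = 0.0702).

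Other steady rises were *ABCA12*, a lipid transporter (0.24 ± 0.04), *MTM1*, a phosphoinositide phosphatase (0.26 ± 0.05), *DST*, a cytoskeletal linker (0.18 ± 0.03), *MGST1*, a microsomal glutathione transferase (0.17 ± 0.03) and *THEM4*, an acyl-CoA thioesterase (0.17 ± 0.04). ENSG00000288662 (0.17 ± 0.04) lies within *GSK3B* on the same strand and ENSG00000279726 (0.38 ± 0.07) opposite the protocadherin gene *PCDHA1*, so both are uncertain. Their adjusted p-values with 19 libraries ran from 0.0318 to 0.0959.

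**Figure D3:**
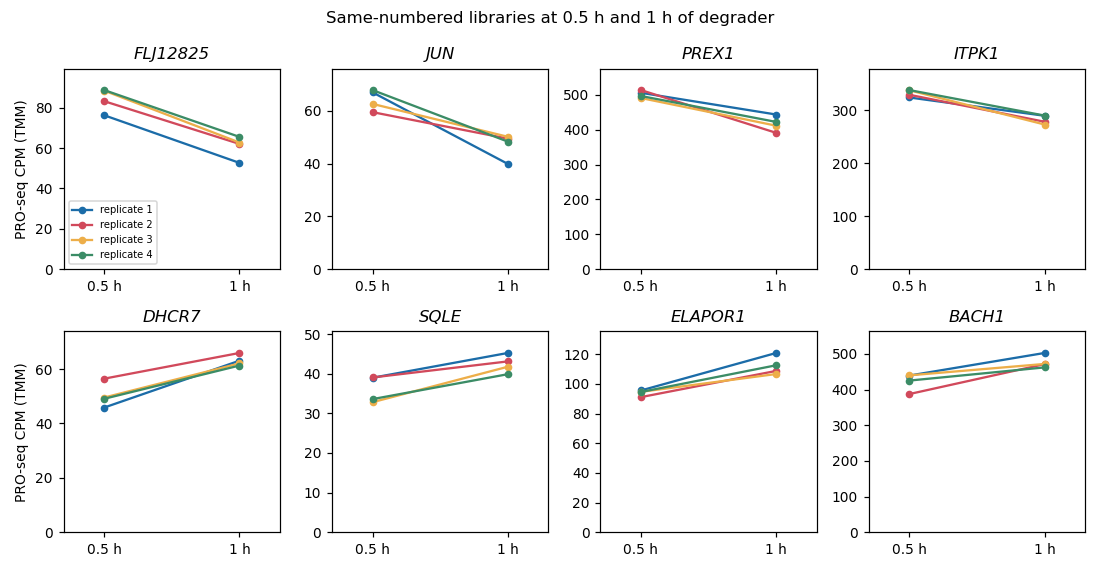
PRO-seq CPM of 8 genes at 0.5 h and 1 h, 1 line for each same-numbered pair of libraries, with vertical axes from 0. *FLJ12825*, *JUN*, *PREX1* and *ITPK1* are lower at 1 h in 4 of 4 pairs, and *DHCR7*, *SQLE*, *ELAPOR1* and *BACH1* are higher in 4 of 4.

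Cholesterol genes had the highest median of the lists apart from those of RNA polymerase III and the mitochondrial genome, whose higher medians differed widely between pairs and are given further on. Cells make cholesterol from acetyl-CoA through the mevalonate pathway, and its enzymes are induced together when sterols run low. With 8 libraries 0 of 28 genes tested were called, 9 were higher and 0 lower at an unadjusted p under 0.05 (3.91% and 3.56% of all genes tested), and the median log2 fold change was 0.09 against -0.000604 over all genes. The median was positive in each of the 4 pairs (0.05, 0.09, 0.08 and 0.15), and 12 of the 28 genes were higher in every pair, or 42.9%, against 8.11% of all genes tested. With 19 libraries 2 of 28 were called, both higher, beside 0.0765% of all genes called higher.

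*DHCR7*, whose enzyme makes cholesterol in the last step of the pathway, was the first of these. It gave 45.8, 56.5, 49.5 and 49.1 CPM at 0.5 h against 63.1, 65.9, 62.1 and 61.3 CPM at 1 h, with no overlap. Its log2 fold change was 0.32 ± 0.05 (SE; edgeR with 19 libraries, adjusted p = 0.0072; 0.252 with 8 libraries). It overlaps ENSG00000254682 on the other strand (mean counts of 513.8 and 99.12 over the 8 libraries), so its count is uncertain. *SQLE*, squalene epoxidase, gave 39.0, 39.0, 32.8 and 33.6 CPM at 0.5 h against 45.2, 43.1, 41.8 and 39.9 CPM at 1 h, a log2 fold change of 0.24 ± 0.05 (edgeR, adjusted p = 0.0959). At 0.5 h both genes lay below their DMSO means of 58.0 and 42.2 CPM, and at 1 h *SQLE* had a mean of 42.5 CPM. The contrast for *SQLE* thus spans a level at 0.5 h under that of DMSO.

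The list's other members were not called. *MSMO1*, a sterol demethylase, gave 32.3, 30.4, 29.3 and 28.1 CPM at 0.5 h against 35.7, 36.1, 33.4 and 37.7 CPM at 1 h (log2 fold change 0.25 ± 0.06; edgeR, adjusted p = 0.60). *MVK*, mevalonate kinase, had a log2 fold change of 0.23 ± 0.08. *NPC1*, which moves cholesterol out of lysosomes, had 0.18 ± 0.04. Of the 18 fatty acid genes tested, 0 were called with either fit, and the median was 0.02; *SCD*, stearoyl-CoA desaturase, had the smallest p-value (log2 fold change 0.19 ± 0.06; edgeR, adjusted p = 0.60).

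Immediate-early genes, which answer signals to the cell within minutes, had the lowest median of the lists. Of 58 tested, 0 were called with 8 libraries, 0 were higher and 14 lower at an unadjusted p under 0.05 (3.91% and 3.56% of all genes), and the median log2 fold change was -0.11. The pair medians were -0.08, -0.18, -0.03 and -0.17. None of the 58 was higher in all 4 pairs and 17 were lower in all 4, or 29.3%, against 8.89% of all genes. The 19-library fit called 1 of 59, *JUN*, beside 0.0841% of all genes called lower.

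*JUN*, a subunit of the AP-1 transcription factor, gave 67.0, 59.5, 62.7 and 67.9 CPM at 0.5 h against 39.9, 49.5, 50.2 and 48.4 CPM at 1 h. The groups did not overlap, and the log2 fold change was -0.43 ± 0.06 (SE; edgeR with 19 libraries, adjusted p = 0.0072; 0.304 with 8 libraries). Its mean was 56.8 CPM in DMSO and 64.3, 47.01 and 54.8 CPM at 0.5, 1 and 2 h. *DUSP1*, a phosphatase of MAP kinases, gave 23.4, 24.6, 20.1 and 18.4 CPM at 0.5 h against 19.8, 18.8, 16.4 and 15.0 CPM at 1 h (log2 fold change -0.31 ± 0.07; edgeR, adjusted p = 0.60). *ZFP36*, which speeds the decay of mRNAs, had a log2 fold change of -0.27 ± 0.06, *FOS*, the AP-1 partner of *JUN*, -0.24 ± 0.08, *IER3* -0.19 ± 0.05 and *MYC* -0.15 ± 0.05. *EGR1*, a classic member, had -0.11 ± 0.12. None of these was called.

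Estrogen-induced genes had a small negative median. Of 54 tested, 0 were called with 8 libraries, 0 were higher and 12 lower at an unadjusted p under 0.05 (3.91% and 3.56% of all genes), and the median was -0.05, negative in all 4 pairs. In every pair 17 of the 54 were lower and 1 was higher, or 31.5% and 1.85%, against 8.89% and 8.11% of all genes. With 19 libraries 1 of 56 was called, *B4GALT1*, lower (0.0841% of all genes). Medians negative in all 4 pairs were not particular to this list. The immediate-early, keratin, unfolded protein and integrated stress, ribosomal protein and receptor tyrosine kinase lists had them too. The keratin and stress medians, -0.0714 and -0.0486, were below the -0.0457 of estrogen-induced genes. Of 78 ribosomal protein genes, 0 were higher and 10 lower at an unadjusted p under 0.05. *PGR*, the progesterone receptor gene, gave 2460, 2284, 2705 and 2714 CPM at 0.5 h against 2263, 2231, 2419 and 2455 CPM at 1 h, a log2 fold change of -0.11 ± 0.03 (edgeR, adjusted p = 0.60). *GREB1*, a cofactor of the estrogen receptor, had -0.10 ± 0.03 and *CCND1*, cyclin D1, -0.14 ± 0.04 (edgeR, adjusted p = 0.60 and 0.624). *FHL2*, a LIM-domain cofactor, had the smallest p-value of the list with 8 libraries, with -0.17 ± 0.04 (edgeR, adjusted p = 0.60). *ESR1*, the estrogen receptor gene, had -0.01 ± 0.02, with means of 2452 ± 89.8 and 2435 ± 71.8 CPM (SD, n = 4).

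**Figure D4:**
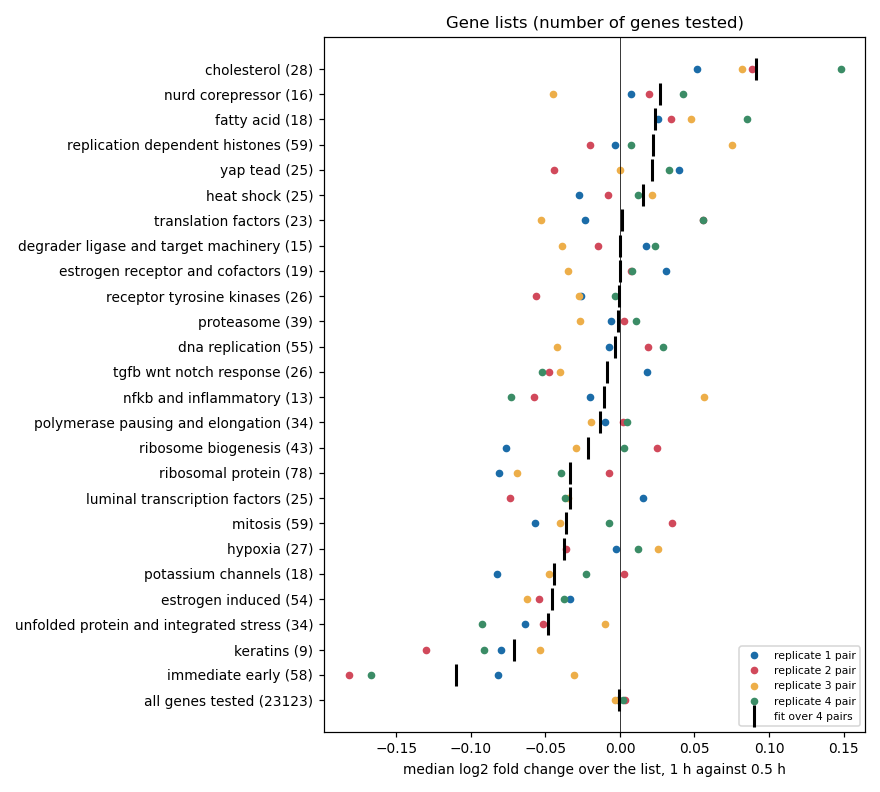
Median log2 fold change of 1 h against 0.5 h over each gene list, with the number of genes tested in brackets. Points are the medians within each same-numbered pair and the black bar is the median of the 8-library fit; cholesterol (0.09) lies at the top and immediate-early genes (-0.11) at the bottom of the lists drawn, and all genes tested lie at 0.

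Other lists, apart from the RNA polymerase III and mitochondrial ones, had medians between -0.07 and 0.03. Of the luminal transcription factor genes, 0 of 25 were called with 8 libraries, and with 19 *RUNX1* fell; *GRHL2* had -0.11 ± 0.03 and *ELF5* 0.13 ± 0.04, neither called. Keratin genes had a median of -0.07 with 1 of 9 positive, and *KRT80* had the smallest p-value (-0.16 ± 0.04; edgeR, adjusted p = 0.60). Ribosomal protein genes had a median of -0.03 with 0 of 78 called, and genes of the unfolded protein and integrated stress responses had -0.05 with 0 of 34 called. Proteasome genes (median -0.00116, 39 tested), the degrader's own ligase machinery (0.000363, 15), DNA replication (-0.0033, 55), mitosis (-0.04, 59), heat shock (0.02, 25), pausing and elongation factors (-0.01, 34) and NuRD corepressor genes (0.03, 16) had 0 calls with either fit. So did receptor tyrosine kinases (-0.000753, 26), TGF-beta, Wnt and Notch response genes (-0.00858, 26), NF-kB and inflammatory genes (-0.01, 13), hypoxia genes (-0.04, 27), translation factors (0.00159, 23), ribosome biogenesis (-0.02, 43), potassium channels (-0.04, 18), estrogen receptor cofactors (0.000113, 19) and replication-dependent histones (0.02, 59). YAP and TEAD targets and partners had a median of 0.02 with 25 tested and 1 call with 19 libraries, *AMOTL2*, lower.

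For the lists with no call by 8 libraries, the member with the smallest p-value also stayed far from the threshold. Among these were *DNAJB4*, a heat shock cochaperone (-0.15 ± 0.05), *SLC7A5*, an amino acid transporter (-0.16 ± 0.06), *PDK1*, which limits pyruvate oxidation (0.29 ± 0.08), and *CUL2*, a cullin scaffold of ubiquitin ligases (-0.14 ± 0.05). The same held for *PSMB7* of the proteasome (-0.14 ± 0.04), *RPS16* of the small ribosomal subunit (-0.17 ± 0.05), *NOP2* of ribosome assembly (0.24 ± 0.08), *EEF1A1*, the elongation factor of translation (-0.09 ± 0.04), *MCM5* of the replicative helicase (-0.19 ± 0.05), and *MTA1* of NuRD (-0.12 ± 0.04). *CKAP5*, which binds spindle microtubules, had 0.16 ± 0.05, *INTS6* of the Integrator complex 0.08 ± 0.03, *FLT4*, a receptor for vascular endothelial growth factors, -0.33 ± 0.07, *PMEPA1*, an inhibitor of TGF-beta signalling, -0.17 ± 0.05, *KCNK5*, a potassium channel, -0.23 ± 0.06, and the histone gene *H2BC8* 0.14 ± 0.04. Adjusted p-values of these genes by edgeR with 8 libraries ran from 0.60 to 0.662. *DNAJB4*, *CUL2*, *NOP2* and *MTA1* overlap other counted genes on the same strand, so their counts are uncertain. *CKAP5* was unsteady in DMSO, with a 3.71-fold span between libraries.

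Small RNA genes of RNA polymerase III and the mitochondrial genome varied by library. The polymerase III list had a median of 0.78 with 33 of 34 genes positive and 0 called, but its pair medians were -0.23, 1.06, 0.21 and 2.37. *RNA5S11*, a 5S ribosomal RNA gene, gave 218, 34.5, 11.6 and 11.9 CPM at 0.5 h against 312, 59.2, 17.8 and 75.7 CPM at 1 h. Mitochondrial genes had a median of 0.09 with pair medians of -0.10, 0.72, -0.16 and 0.07, and *MT-TA*, a mitochondrial transfer RNA gene, had 0.52 ± 0.15 (edgeR, adjusted p = 0.60). Without replicate 2 the mitochondrial median was -0.06. The spread between pairs exceeded the medians in both lists.

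The time course placed the interval in context, with group means set side by side and no test between them. The 24 h group, here and in the 19-library fit, has 3 libraries and lacks replicate 1, while every other group has 4. Of the 22 falls with 19 libraries, 12 had a DMSO mean above the 0.5 h mean and 10 a DMSO mean between those of 0.5 h and 1 h. At 2 h, 17 of the 22 had come back to between the 0.5 h and 1 h means, 4 were lower still and 1 was above the 0.5 h mean. On the log2 scale relative to DMSO, the median of the 22 genes went from -0.03 at 0.5 h to -0.24 at 1 h, and then through -0.14 and -0.11 at 2 and 4 h to -0.06 at 24 h. *FLJ12825* had a mean of 74.5 CPM in DMSO and, in order of time, of 84.2, 60.8, 66.2, 63.3 and 72.3 CPM with dTAG. Choosing genes by their difference between 0.5 h and 1 h favours means between the 2 at other times, so the return is given as a description.

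The median of the steady rises stayed nearer its 1 h level, though no test compared rises with falls. At 2 h, 7 of the 16 rises steady in DMSO lay between the 0.5 h and 1 h means and 6 were higher still. The other 3, *KRT39* among them, were below the 0.5 h mean. For the 15 rises that were steady in DMSO, *KRT39* left out, the median relative to DMSO was -0.01 at 0.5 h and 0.23 at 1 h, and stayed at 0.18, 0.19 and 0.12 at the later times. *DHCR7* had a mean of 58.0 CPM in DMSO and, in order of time, of 50.2, 63.1, 73.4, 73.8 and 58.7 CPM with dTAG. *ELAPOR1* had 95.8, 94.0, 112, 117, 119 and 118 CPM in the same order.

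**Figure D5:**
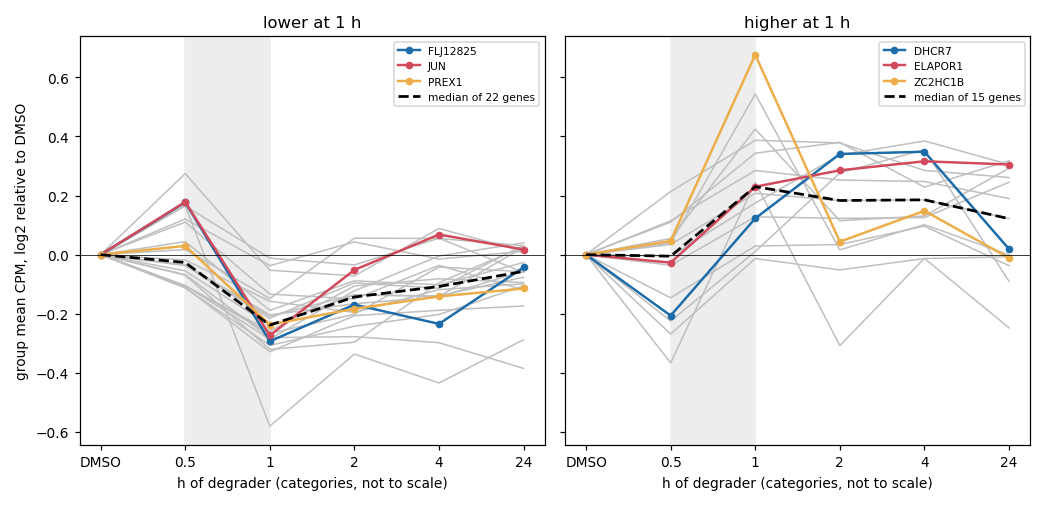
Group mean CPM relative to DMSO (log2, vertical) over the 6 groups (horizontal, categories not to scale) for the genes called lower (left, 22) and higher (right, 15 steady in DMSO, *KRT39* left out) with 19 libraries in the fit; the tested interval is shaded. The dashed median of the falls goes from -0.03 to -0.24 and back to -0.14 at 2 h, and that of the rises from -0.01 to 0.23 and 0.18.

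A few rises were high at 1 h and near the 0.5 h level at 2 h. *ZC2HC1B*, a zinc finger gene, gave 16.1, 15.8, 16.8 and 16.9 CPM at 0.5 h, 29.1, 19.4, 22.3 and 30.6 CPM at 1 h, then 16.4, 16.8, 15.9 and 16.4 CPM at 2 h. Its log2 fold change was 0.58 ± 0.11 (edgeR with 19 libraries, adjusted p = 0.04). ENSG00000280148, which overlaps *ZC2HC1B* and *LTV1* on the same strand, gave 40.8, 30.7, 32.1 and 40.2 CPM at 1 h against 23.9 to 26.9 CPM at 0.5 h. *CCDC26*, a lncRNA gene, rose by 0.59 ± 0.09 (adjusted p = 0.0109), from a mean of 14.2 ± 1.17 to 21.7 ± 3.46 CPM. In all 3 genes the highest 1 h values were in replicates 1 and 4, the shallowest libraries at that time. In the shallow replicate 1 library at 4 h they gave 22.3, 33.5 and 24.2 CPM, above the other 4 h libraries. The part of depth in these rises was not tested beyond the thinned fit, in which their adjusted p-values were 0.32, 0.382 and 0.392, against 0.405, 0.405 and 0.271 in the 8-library fit at full depth.

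The remaining 5 calls of the 19-library fit were erratic. *KRT39*, a hair keratin gene, gave 22.4, 5.02, 2.25 and 1.53 CPM at 0.5 h against 61.8, 19.1, 172 and 124 CPM at 1 h. It rose by 4.09 ± 0.74 on the log2 scale (edgeR, adjusted p = 0.0358). At 2 h the gene gave at most 8.91 CPM. ENSG00000254754 rested on replicate 1, with 96.2 CPM there at 1 h and 1.55 to 6.88 CPM in the other 3 libraries. *DNASE1L3*, a nuclease gene, ENSG00000259678 and *C15orf32* were likewise spread between replicates, and with ENSG00000254754 were among the 4 called genes that were unsteady in DMSO.

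The libraries at 2 h and in DMSO (0.1% for 24 h), none of which is in the tested contrast, give the change of the called genes from DMSO to 2 h. That change includes moves made before 0.5 h, so its sign does not tell what a gene did after 1 h. The comparison of 2 h with DMSO called 248 of 24237 genes higher (1.02%) and 448 lower (1.85%) at 2 h. Of the 4 genes called with 8 libraries, 2 had the same sign at 2 h against DMSO and 0 were called, *FLJ12825* with a log2 fold change of -0.18 (edgeR, adjusted p = 0.104). Of the 42 called with 19 libraries, 33 had the same sign, 16 of them called, and 3 were called with the opposite sign. Among all genes tested 51.9% had the same sign. The 19-library fit used the 2 h libraries for its spread and replicate terms, so the comparisons are not fully separate.

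Those called the same way at 2 h were 8 falls and 8 rises. The falls were *PREX1* (-0.19), *ZMIZ1* (-0.17), *SRCIN1* (-0.30), *CELSR1* (-0.21), *MBOAT1* (-0.24), *AMZ1* (-0.20), *B4GALT1* (-0.21) and ENSG00000250644 (-0.28), values being log2 fold changes of 2 h against DMSO. The rises were *DHCR7* (0.33), *SQLE* (0.28), *ELAPOR1* (0.28), *BACH1* (0.37), *ABCA12* (0.37), *DST* (0.33), *THEM4* (0.25) and *MGST1* (0.18). *JUN* was not among them, at -0.07 (edgeR, adjusted p = 0.714), nor *RUNX1* at -0.04 (adjusted p = 0.78). The 3 called with the opposite sign were *KRT39*, *DNASE1L3* and ENSG00000259678. For the cholesterol list, 16 genes were called higher and 0 lower at 2 h, with a median of 0.23; for the immediate-early list 1 was higher and 0 lower, with a median of -0.04.

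By the length of the gene, the 19-library fit called 4 genes under 10 kb (0.0484%), 12 of 10 to 50 kb (0.138%), 18 of 50 to 200 kb (0.256%) and 8 over 200 kb (0.378%). Median counts per library in these classes were 38.6, 199, 244 and 209. The differences between classes rest on few calls and were not tested. Where along a gene the reads moved cannot be seen in counts over whole genes. The median log2 fold change went from -0.02 in the shortest class to 0.05 in the longest. The part of read depth was not tested. The motif search found AGATAA in 4 of the 12 rising genes with a RefSeq promoter and in 1 of the 15 falling ones (10.3% of all promoters). In the same order, TGACNTCA was found in 2 and 4 (7.72%), AGGTCA in 1 and 3 (13.8%), TGANTCA in 2 and 1 (7.71%) and TCACNCCAC in 0 and 0 (1.13%). A gene was counted if any of its promoters had the motif, while the percentages are of single promoters. The gene counts are thus raised against the percentages, and no difference was tested.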

How the data were processed

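PRO-seq counts per gene were analysed for 8 libraries, 4 at 0.5 h and 4 at 1 h of dTAG. Per the study's methods and the submitters' processing notes, the authors trimmed adapters (cutadapt 1.8.1), collapsed molecular identifiers, removed ribosomal DNA reads, aligned to hg38 (Bowtie2 2.4.4, SAMtools 1.9) and used bedtools to count reads per gene. The deposited values are these raw counts, without normalization, for 60605 genes. The annotation and the use of strand in counting are not given in the sources used here. Overlaps are pointed out above for some genes only. Other named genes also overlap counted genes, among them *ABCA12* with *SNHG31* and *CCND1* with *LTO1* on the other strand. *PREX1* overlaps ENSG00000278231 on the same strand. Symbols and spans came from GENCODE release 44 by identifier (60463 matched).

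Counts were fitted with edgeR 4.0.16 in R 4.3.3 (quasi-likelihood F-test, TMM factors, filterByExpr with a minimum count of 10 and total of 15) and the replicate number as a block. The p-values are two-sided, with Benjamini-Hochberg adjustment over every gene tested, and genes under 0.1 were called. SE is the log2 fold change over the square root of F. CPM values use the TMM factors of all 23 libraries. No 2 replicates agreed within sampling noise (chi-square per degree of freedom 1.63 to 38.4).

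The block rests on the replicate numbers in the labels. That replicates were separate harvests within a day is stated in the study's methods, and same-numbered libraries were taken to share a harvest. Deviations of same-numbered libraries from their group means correlated at 0.601, 0.0364, 0.548 and 0.0761 for replicates 1 to 4. Pairs with different numbers ran from -0.656 to 0.52, and the highest lay above the same-numbered values of 0.0364 and 0.0761. Their mean was -0.106, which cannot test the pairing. Deviations cancel out within each group, so a positive mean for same-numbered pairs largely forces a negative one for the rest. That same-numbered libraries shared a harvest was not tested otherwise.

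Genes were named by rule: *TRPS1*, *ESR1*, *GREB1*, *PGR*, *MYC* and *CCND1*; the 15 largest rises and falls among called genes with a mean of at least 100 counts and 1 direction in all pairs; the 5 smallest p-values; and up to 4 called members of each list, or the member with the smallest p-value. *DUSP1*, *ZFP36*, *FOS*, *EGR1*, *MSMO1*, *MVK*, *NPC1*, *GRHL2* and *ELF5* were named after their values were seen. Some genes are not reported here, though counts and medians include them. The comparison, rule and gene lists were chosen with earlier results of these data known. Alternatives were no block, all 19 dTAG or all 23 libraries, RLE factors, total counts, other filters, DESeq2 1.42.0, limma-voom 3.58.1 and leaving out each replicate. Robust shrinkage, genes steady in DMSO (at most 3-fold), both together, 19 libraries with robust shrinkage, and thinning of the 0.5 h libraries to the depth of their 1 h partners were chosen after seeing the data.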

Additional observations from a re-analysis of the deposited data

Results flagged for a closer look

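Among 72 genes looked at, each in 2 groups of 4 libraries, 9 of 144 groups held a library far from the other 3; chance gives about 1 in 20. Replicate 1 held 6 of them. At 0.5 h, replicate 1 stood high for ENSG00000259678 (15.3 CPM, nearest other library 1.95), *CKAP5* (301, nearest 247), *RNA5S11* (218, nearest 34.5) and *KRT39* (22.4, nearest 5.02). At 1 h, replicate 1 stood high for ENSG00000287474 (44.6, nearest 14.7) and ENSG00000254754 (96.2, nearest 6.88). Replicate 2 stood apart at 0.5 h for *IER3* (64.0, nearest 56.9) and *SLC30A1* (37.8, nearest 40.7). Replicate 4 at 1 h was low for *CCND1* (119, nearest 145). Replicate 1 is also the shallowest library of both groups, and the part of depth was not tested.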

How the results depend on the processing

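The count of calls varied strongly between fits, which differed in the block, the libraries, the filter, the normalization or the estimate of spread. Against 4 calls (3 higher, 1 lower, 2 with the same sign at 2 h against DMSO) in the 8-library fit with the replicate block, the fit with no replicate block gave 0 calls (0 higher, 0 lower, 0 followed), where 1032 genes had an unadjusted p under 0.05 and DESeq2 with the block called 21. All 19 dTAG libraries gave 42 (20 higher, 22 lower, 33 followed), and all 23 libraries 41 (19, 22 and 34), of which 38 were shared with the 42. DESeq2's 21 were 11 higher and 10 lower, with 14 followed, and held 14 of the 42. Limma-voom gave 6 calls, 3 lower, with 4 followed. Without the low-count filter 547 genes were called (399 higher, 148 lower, 179 followed), with an infinite prior for the spread, so that the spread was not estimated gene by gene. A mean of at least 100 counts gave 1 higher and 2 lower, with 1 followed. Leaving out 1 replicate gave between 0 and 26 calls (0 to 23 higher, 0 to 3 lower, 0 to 6 followed): 26 without replicate 1, 3 without replicate 2, 0 without replicate 3 (1426 genes at an unadjusted p under 0.05) and 0 without replicate 4 (1172 genes). Among alternatives chosen after seeing the data, robust shrinkage gave 39 calls (20, 19 and 33), genes steady in DMSO 10 (5, 5 and 7), both together 78 (36, 42 and 61), 19 libraries with robust shrinkage 120 (60, 60 and 88), and thinning to equal depth 4, with 1 followed. RLE factors and total counts gave 4 calls each. The cause of these differences was not tested. No gene whose 1 h against 0.5 h log2 fold change is given from the 8-library fit, or that was called with 19 libraries and tested with 8, reversed its sign under an alternative that tested it. The list medians moved by more than the spread of their pair medians in 11 of 504 cases, with ranges of 0.07 to 0.11 for cholesterol, -0.14 to -0.07 for immediate-early and -0.06 to -0.04 for estrogen-induced genes. The 1 h libraries, of 5016775 to 8789399 counts, limit the precision more than those at 0.5 h.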
